A study of Mus musculus with 6 samples.

Results

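Fatty acid oxidation genes encode the enzymes that activate long-chain fatty acids, carry them into mitochondria as carnitine esters, and shorten them by repeated cycles of dehydrogenation, hydration, dehydrogenation and thiolysis. The list held 31 genes of these steps, of the peroxisomal branch and of the receptors PPAR alpha and PPAR delta, chosen by function, with earlier results of these data known. Of these 31 genes, 28 had a probe set annotated to that gene alone, out of 22180 genes measured in all. The arrays compared MLL-AF9 leukaemias of wild-type mice (WT, 3 arrays) with MLL-AF9 leukaemias of mice with an Evi1 transgene (Evi1 Tg, 3 arrays), on a C57BL/6J background, untreated. Both groups therefore carry MLL-AF9, a fusion oncogene that causes acute myeloid leukaemia, and Evi1 is a zinc finger transcription factor encoded within Mecom. Each array read total RNA of 10000 leukaemia cells sorted for GFP. The labels give neither the animals' age nor the promoter of the transgene, nor whether replicates came from separate animals, so p-values describe only the spread between these samples.

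Beta-oxidation yields acetyl-CoA, NADH and reduced flavoprotein, and its entry is controlled at carnitine palmitoyltransferase 1, which malonyl-CoA inhibits. Leukaemic cells are known to draw on this pathway together with glucose and glutamine. PPAR alpha and PPAR delta bind DNA with the retinoid X receptor and are known activators of many of these genes in liver and muscle.

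The arrays had median intensities of 51.6 to 55.4, and correlated at 0.972 to 0.992 across genes, which are not independent replicates. Mecom read 39.4, 37.4 and 34.2 in the WT arrays and 40.7, 37.7 and 37.5 in the Evi1 Tg arrays, below the background intensity of 62.4, so this probe set does not check the labels. Background was the 90th percentile of the mean levels of 72 genes of other tissues. All 8 myeloid markers, among them Ptprc, Spi1, Itgam and Csf1r, lay above it, while the 3 measured T cell markers (Cd3e, Cd3g and Cd2) and the 3 measured erythroid markers (Epor, Klf1 and Slc4a1) did not. Of 4 B cell markers 1, Cd79b, lay above it, as did all 3 measured megakaryocyte markers. Of 4 genes of liver or fat, Alb, Adipoq and Plin1 were below background and Apoa1 was above it. Alb was itself among the 72 genes that set the background, so its place below it is not a separate check. In bulk RNA, fewer cells of a type and less RNA per cell cannot be told apart.

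Promoter sequences are shown for Acadm and Acox3, among the 4 members with an unadjusted p under 0.05, and for Hadha and Hadhb, whose products are the alpha and beta subunits of the mitochondrial trifunctional protein. The RefSeq table gives 250 bases before a start of each gene (GRCm38.p6). For Acox3 that start lies inside the gene's outermost span, so only the 197 bases outside that span are shown, and the Acsl4 bases lie within its gene and are not shown. The coordinates are chr3:153944644-153944893 (minus strand) for Acadm and chr5:35582784-35582980 (plus strand) for Acox3. The third sequence is the stretch shared by the windows of Hadha and Hadhb, chr5:30155003-30155230 (plus strand), since these genes start 272 bases apart in opposite directions. Capitals mark AGGTCA, the element recognised by PPAR, the retinoid X receptor and other nuclear receptors, and GGGCGG, the GC box, each on either strand.
Acadm: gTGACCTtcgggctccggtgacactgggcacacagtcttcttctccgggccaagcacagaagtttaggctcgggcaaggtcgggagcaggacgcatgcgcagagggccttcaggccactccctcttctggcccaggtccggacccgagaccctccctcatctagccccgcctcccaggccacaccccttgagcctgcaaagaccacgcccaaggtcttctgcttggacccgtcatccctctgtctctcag
Acox3: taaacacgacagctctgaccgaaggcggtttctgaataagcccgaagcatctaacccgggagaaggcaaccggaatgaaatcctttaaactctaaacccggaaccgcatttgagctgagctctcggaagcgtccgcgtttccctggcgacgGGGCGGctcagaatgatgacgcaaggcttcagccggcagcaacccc
Hadha and Hadhb: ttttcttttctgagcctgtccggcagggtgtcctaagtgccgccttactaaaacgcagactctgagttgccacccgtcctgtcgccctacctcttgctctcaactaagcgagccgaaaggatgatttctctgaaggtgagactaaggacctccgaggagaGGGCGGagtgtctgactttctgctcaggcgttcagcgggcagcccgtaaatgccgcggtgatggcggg

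The Acadm sequence held 1 AGGTCA element, on the opposite strand, and 0 GC boxes, whereas the Acox3 sequence and the Hadha and Hadhb stretch each held 1 GC box, with 0 AGGTCA elements in both. Of the 28 measured members, 24 had a RefSeq window of 300 bases (250 before and 50 after the table's start, which can lie inside the gene). The others were Acaa2, Crat, Decr1 and Hsd17b4. AGGTCA was present in 5 of the 24 windows (20.8%), those of Acadm, Acadvl, Cpt1a, Cpt1c and Echs1, against 16.3% of all 32851 windows. The arrangement that PPAR prefers, a pair of AGGTCA elements spaced by 1 base, was in 0 of 24 and in 0.0396% of all. Only the exact pair was searched, and it is so rare that 0 of 24 says nothing about PPAR binding to these genes. GC boxes were present in 20 of 24 (83.3%), against 35.7% of all windows, and CCAAT in 11 of 24 (45.8%), against 37.4%. All windows covered 27025 genes, whether or not these cells express them. No share was computed for genes above background, so these contrasts are not particular to fatty acid oxidation genes. A match is a description of the letters, not a bound site.

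Fatty acid oxidation genes were on balance slightly lower in Evi1 Tg, with no member past the test. Acox3, Acaa2, Acadm and Acsl4 had the lowest p-values, with Evi1 Tg levels at 0.728, 0.803, 0.771 and 0.762 of the WT level. The median log2 difference (Evi1 Tg minus WT) was -0.11 over the 28 members and 0.012 over all genes. A difference below 0 was found for 20 of 28 members (71.4%), against 46.5% of all genes. Above background this was 20 of 26 members (76.9%), against 49.0% of all 11183 genes above background.

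At a limma p under 0.05 after Benjamini-Hochberg adjustment over all genes, 0 of 28 members were lower and 0 were higher, where 0.104% and 0.00902% of all genes were called lower and higher. At an unadjusted limma p under 0.05, 4 members were lower (14.3%) and 0 higher, against 5.8% and 4.5% of all genes. All 3 Evi1 Tg arrays lay below all 3 WT arrays for 5 members (17.9%: Acsl4, Cpt1c, Acadm, Acaa2 and Acox3), against 7.47% of all genes, and above them for 0 members, against 7.08%. These shares include dim genes, while 26 of the 28 members were above background. In a fit of the 11183 genes above background, 8.17% were lower and 5.6% higher at an unadjusted limma p under 0.05. Groups did not overlap for 10.7% (lower) and 7.88% (higher) of those genes. The same 4 and 5 members were counted there. At the members' median standard error (SE) of 0.13 on the log2 scale, a gene needed a difference of about 1.14, or 2.20-fold, to reach the largest p that was called (5.22e-05). The largest member difference, 0.46 in size, was below that. No 95% interval of a member reached beyond 0.77 in either direction.

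**Figure D1:**
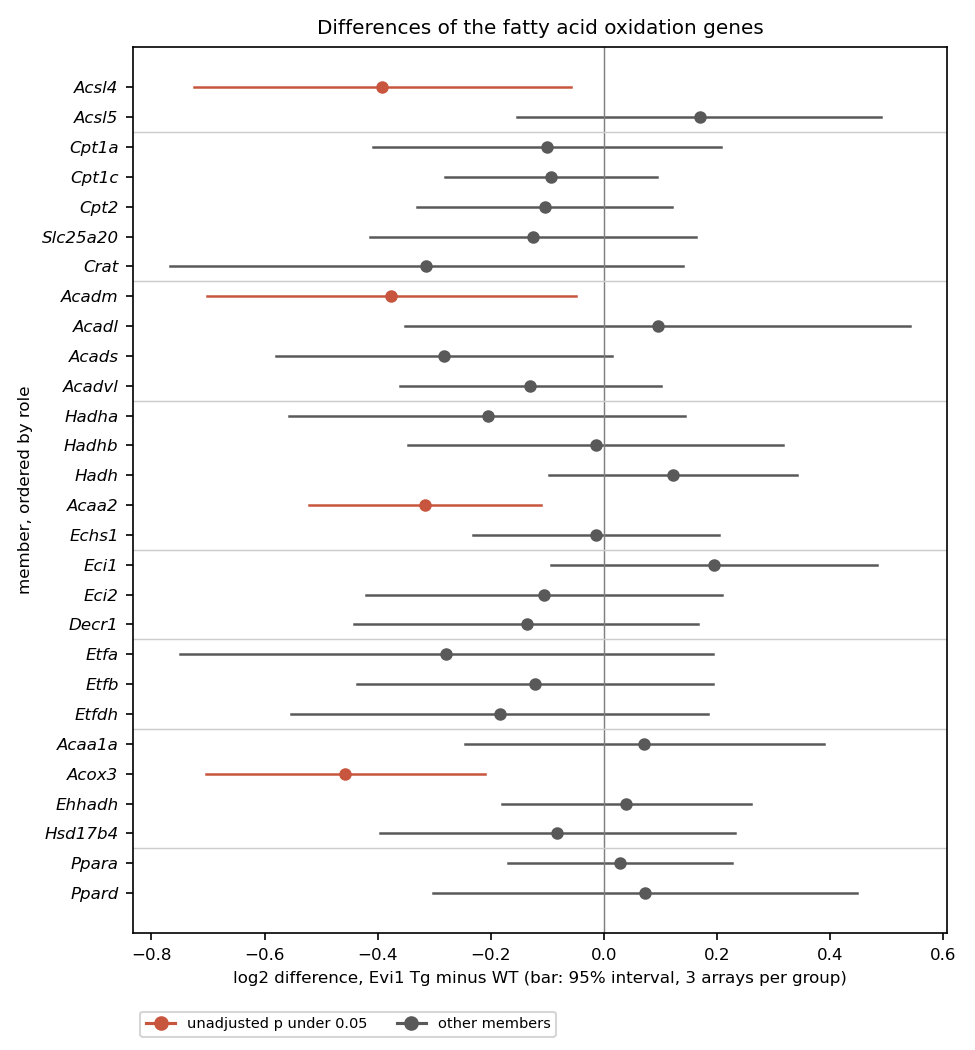
Log2 difference in intensity, Evi1 Tg minus WT (horizontal axis), for the 28 measured members in order of their role (vertical axis), as points with 95% intervals from limma with 3 arrays per group. The intervals of Acsl4, Acadm, Acaa2 and Acox3, in red, lie below 0, and those of the other 24 members include 0.

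Activation joins a fatty acid to coenzyme A and is carried out by the long-chain acyl-CoA synthetases. Acsl4, which prefers arachidonic acid and other polyunsaturated chains, read 461, 439 and 480 in the WT arrays and 301, 330 and 433 in the Evi1 Tg arrays. The groups did not overlap, although Evi1 Tg 3 came close to WT 2. After median centring of the arrays they did overlap. The log2 difference was -0.39 (SE 0.14, n = 3 per group, limma adjusted p = 0.400). Without Evi1 Tg 3 it was -0.55, and without Evi1 Tg 1 it was -0.28. Acsl5, a synthetase of the endoplasmic reticulum and mitochondria, read 585, 637 and 832 in the WT arrays and 741, 771 and 769 in the Evi1 Tg arrays, so that the Evi1 Tg values lay within the WT range. Its difference was 0.17 (SE 0.14, limma adjusted p = 0.773). Acsl1 had 0 probe sets under its name in the annotation used, and Acsl3 1 probe set that also reads another gene, so neither is analysed here.

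In the carnitine shuttle, Cpt1a makes acylcarnitine at the outer mitochondrial membrane, Slc25a20 exchanges it across the inner membrane and Cpt2 returns the acyl group to coenzyme A. Cpt1a, the liver isoform, which blood cells also express, read 1084, 1076 and 961 in the WT arrays and 1155, 933 and 844 in the Evi1 Tg arrays. The highest and the lowest array both belonged to Evi1 Tg, and the difference was -0.10 (SE 0.13, 95% interval -0.41 to 0.21, limma adjusted p = 0.877). Cpt2 (340, 336 and 380 in the WT arrays against 354, 324 and 304 in the Evi1 Tg arrays) and Slc25a20 (237, 265 and 288 against 209, 256 and 261) had overlapping groups, with differences of -0.11 and -0.13. Crat, the carnitine acetyltransferase that buffers acetyl-CoA, read 502, 701 and 403 in the WT arrays and 425, 394 and 440 in the Evi1 Tg arrays. WT 2 stood above the other 5 arrays and WT 3 fell within the Evi1 Tg range, and the difference was -0.31 (SE 0.19, limma adjusted p = 0.660). A second Crat probe set, at 71.8 to 82.3 in the WT arrays and 77.3 to 92.5 in the Evi1 Tg arrays, had a difference of 0.19, opposite in sign to the brighter one, and the mean over both probe sets had -0.062. Without WT 2 the Crat difference was -0.10. Cpt1c, the isoform known from neurons, lay just above background at 70.6 to 76.7 in the WT arrays and 65.9 to 70.5 in the Evi1 Tg arrays, with a difference of -0.094 and groups that nearly touched. Cpt1b, the muscle isoform, shares its 1 probe set with other genes and is not analysed here.

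Acyl-CoA dehydrogenases carry out the first step of each cycle and differ in the chain length they accept. Acadm, the medium-chain enzyme, read 611, 699 and 887 in the WT arrays and 570, 556 and 548 in the Evi1 Tg arrays. The Evi1 Tg arrays lay close together below all WT arrays, and WT 3 was the highest. The difference was -0.38 (SE 0.14, n = 3 per group, limma adjusted p = 0.415), and -0.23 without WT 3. Acads, the short-chain enzyme, read 587, 755 and 628 in the WT arrays and 596, 533 and 487 in the Evi1 Tg arrays, where Evi1 Tg 1 lay just above WT 1 (difference -0.28, SE 0.13, limma adjusted p = 0.510). The very long-chain enzyme Acadvl read 340, 297 and 308 against 313, 269 and 282, a difference of -0.13 (SE 0.097) with overlapping groups. Acadl, the long-chain enzyme, ran the other way, at 766, 728 and 1190 in the WT arrays and 902, 889 and 1007 in the Evi1 Tg arrays. The Evi1 Tg values lay between WT 3 and the other WT arrays, with a difference of 0.095 (SE 0.19) that was 0.32 without WT 3 and -0.036 without WT 2.

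The later steps are carried out by the trifunctional protein for long chains and by Echs1, Hadh and Acaa2 for shorter ones. Acaa2, the thiolase that releases acetyl-CoA, read 541, 476 and 510 in the WT arrays and 425, 387 and 414 in the Evi1 Tg arrays. The groups did not overlap and each was narrow, with a difference of -0.32 (SE 0.087, 95% interval -0.52 to -0.11, limma adjusted p = 0.269). It ranged from -0.36 to -0.27 over 16 alternative settings. Hadha read 888, 958 and 1130 in the WT arrays and 828, 737 and 1025 in the Evi1 Tg arrays, where Evi1 Tg 3 lay within the WT range (difference -0.21, SE 0.15). Its partner Hadhb gave a dim probe set, at 53.4, 78.1 and 62.0 against 62.1, 62.3 and 64.9, on both sides of the background intensity of 62.4, so its difference of -0.015 does not measure the beta subunit well. Hadh, the short-chain hydroxyacyl-CoA dehydrogenase, read 943, 934 and 1071 against 1091, 1114 and 999 (difference 0.12, SE 0.093). Echs1, the short-chain enoyl-CoA hydratase, read 414, 455 and 449 against 399, 466 and 442. Its difference of -0.014 had a 95% interval from -0.23 to 0.20.

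Unsaturated chains need auxiliary enzymes, the isomerases Eci1 and Eci2 and the reductase Decr1. Eci1 read 173, 169 and 218 in the WT arrays and 215, 227 and 196 in the Evi1 Tg arrays, and WT 3 lay with the Evi1 Tg arrays. Its difference of 0.19 (SE 0.12, limma adjusted p = 0.673) was the highest of the 28 and was 0.31 without WT 3. Eci2, which also works in peroxisomes, read 246, 192 and 265 against 202, 219 and 227 (difference -0.11), and Decr1 154, 133 and 159 against 124, 159 and 123 (difference -0.14). Neither separated the groups.

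Electron transfer flavoprotein, made of Etfa and Etfb, takes electrons from the acyl-CoA dehydrogenases, and Etfdh passes them to ubiquinone. Etfa read 609, 528 and 931 in the WT arrays and 569, 528 and 558 in the Evi1 Tg arrays, so that WT 3 alone stood apart and the other 5 arrays lay together. The difference was -0.28 (SE 0.20, limma adjusted p = 0.729), and -0.041 without WT 3. Etfdh had the same layout, at 583, 538 and 800 against 584, 512 and 571, with -0.18 (SE 0.16) and -0.013 without WT 3. Etfb, the other subunit, was lowest in the third array of either group, at 915, 881 and 703 in the WT arrays and 812, 808 and 670 in the Evi1 Tg arrays. Its difference of -0.12 (SE 0.13) was -0.24 without WT 3, so the subunits did not share the high WT 3 value.

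Peroxisomes shorten very long and branched chains. Acox3, the oxidase of branched-chain acyl-CoA, read 155, 184 and 148 in the WT arrays and 119, 113 and 121 in the Evi1 Tg arrays. The groups did not overlap, and the Evi1 Tg arrays lay within a narrow range. The difference was -0.46 (SE 0.10, n = 3 per group, 95% interval -0.70 to -0.21), the largest of the 28 in size, with the lowest limma adjusted p of the list, 0.202. Hsd17b4, the D-bifunctional protein that acts in the same branched-chain route, read 469, 438 and 602 against 486, 439 and 489 (difference -0.083). WT 3 was again the highest, and the other arrays overlapped. Acaa1a, a peroxisomal thiolase, read 87.3, 87.7 and 79.8 against 73.7, 104 and 92.6 (difference 0.071), with the lowest and the highest array both in Evi1 Tg. Ehhadh, the L-bifunctional protein, lay below background in all 6 arrays (44.2 to 51.5 in the WT arrays and 45.5 to 50.5 in the Evi1 Tg arrays).

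Among the receptors, Ppara lay below background in all 6 arrays, at 37.3 to 41.9 in the WT arrays and 40.0 to 41.8 in the Evi1 Tg arrays. Ppard was above background in every array, at 387, 381 and 276 in the WT arrays and 359, 410 and 321 in the Evi1 Tg arrays. The third array was the lowest in each group, and the difference was 0.072 (SE 0.16, 95% interval -0.30 to 0.45, limma adjusted p = 0.938).

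**Figure D2:**
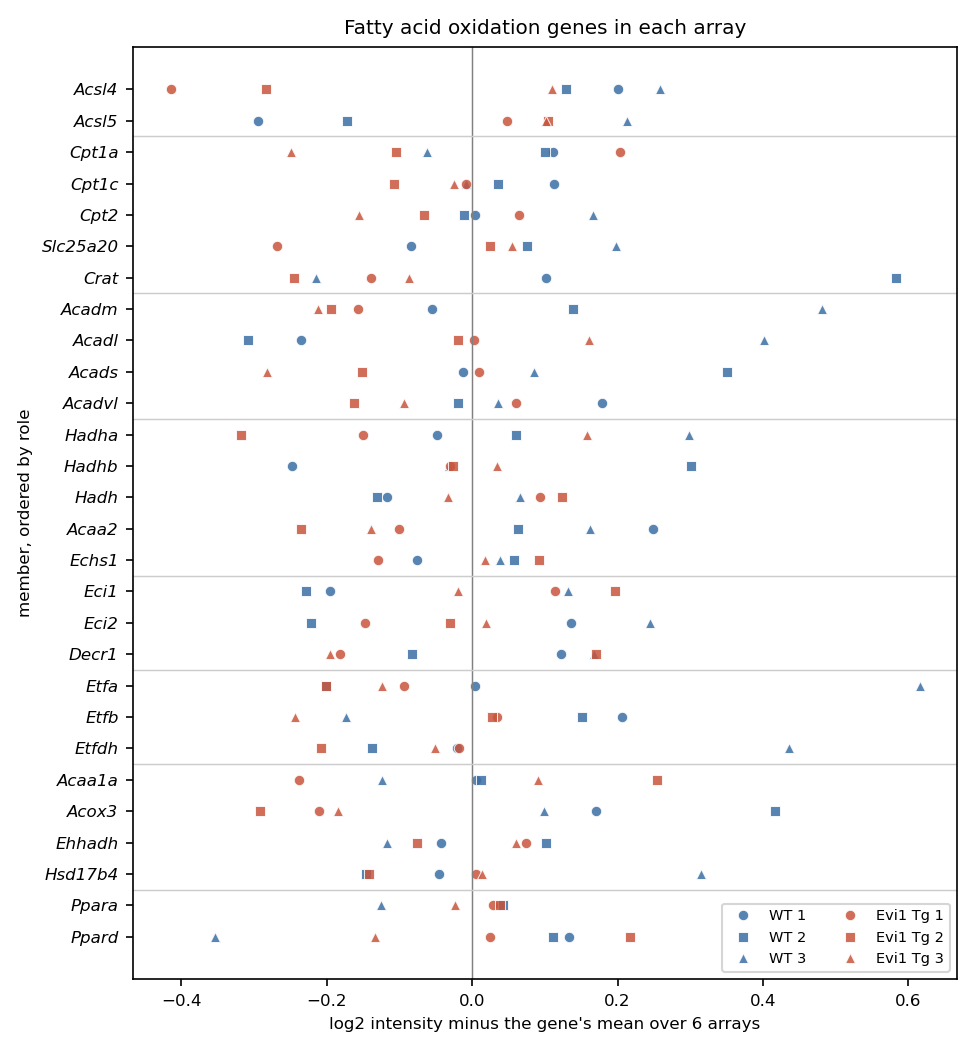
Log2 intensity of each member minus its mean over the 6 arrays (horizontal axis), for the 28 members in order of role (vertical axis), with WT in blue, Evi1 Tg in red and the replicate number as the marker shape. WT 3 (blue triangles) lies far to the right for Etfa, Acadm, Etfdh and Acadl, while for Acox3, Acaa2, Acadm, Acsl4 and Cpt1c all red points lie left of all blue points.

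WT 3 was the highest of the 6 arrays for 11 of 28 members (39.3%), where it was the highest for 19.3% of all genes. Evi1 Tg 3 was the highest for 0 members and for 12.8% of all genes. Evi1 Tg 2 was the lowest for 8 members, against 15.3% of all genes, and the highest for 6, against 20.5%. The median deviation of the members from their own mean was 0.0040, 0.050 and 0.12 in WT 1, 2 and 3, against -0.014, -0.071 and -0.029 in Evi1 Tg 1, 2 and 3. The arrays of the groups thus lay on separate sides, with WT 1 and Evi1 Tg 1 nearly equal. By role, the electron transfer genes had the widest range, from 0.44 in WT 3 to -0.20 in Evi1 Tg 2. The dehydrogenases had 0.24 in WT 3, -0.034 and 0.060 in the other WT arrays, and 0.0060, -0.16 and -0.15 in the Evi1 Tg arrays. For the carnitine shuttle WT 3 was not high (-0.0080, against 0.10 and 0.075 in WT 1 and WT 2).

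**Figure D3:**
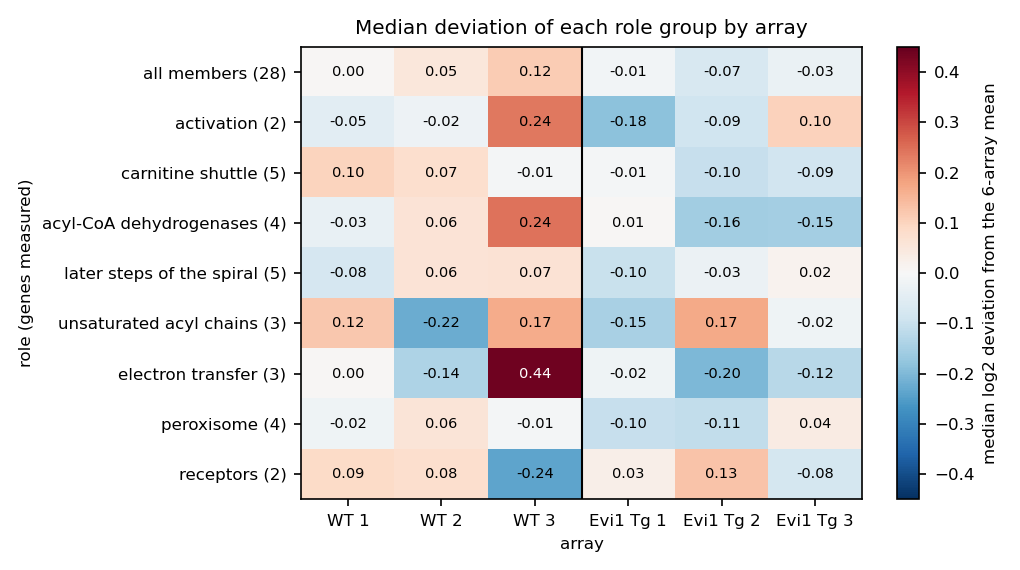
Median log2 deviation from the 6-array mean (colour and printed value) for all members and for each role group (rows, with the number of genes measured) in each array (columns). WT 3 reads 0.44 for electron transfer and 0.24 for the acyl-CoA dehydrogenases and for activation, but -0.24 for the receptors.

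Without WT 3 the median difference of the members was -0.053, against -0.11 with all arrays, and 21 of 28 lay below 0. Over all genes the median was then 0.005, and 10759 of 22180 lay below 0. At an unadjusted limma p under 0.05 the lower members were then Acox3 (-0.52), Acaa2 (-0.31) and Crat (-0.50, against -0.10 without WT 2), and Acsl5 (0.32), Acadl (0.32) and Eci1 (0.31) were higher. Acadm and Acsl4 were no longer among them. Of all genes, 7.05% were lower and 9.42% higher by this rule without WT 3. The smallest limma adjusted p of a member was then 0.0635, for Acox3, so 0 members were called. By the same adjusted threshold, 173 of all genes were called lower and 383 higher without WT 3, against 23 and 2 with all arrays.

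**Figure D4:**
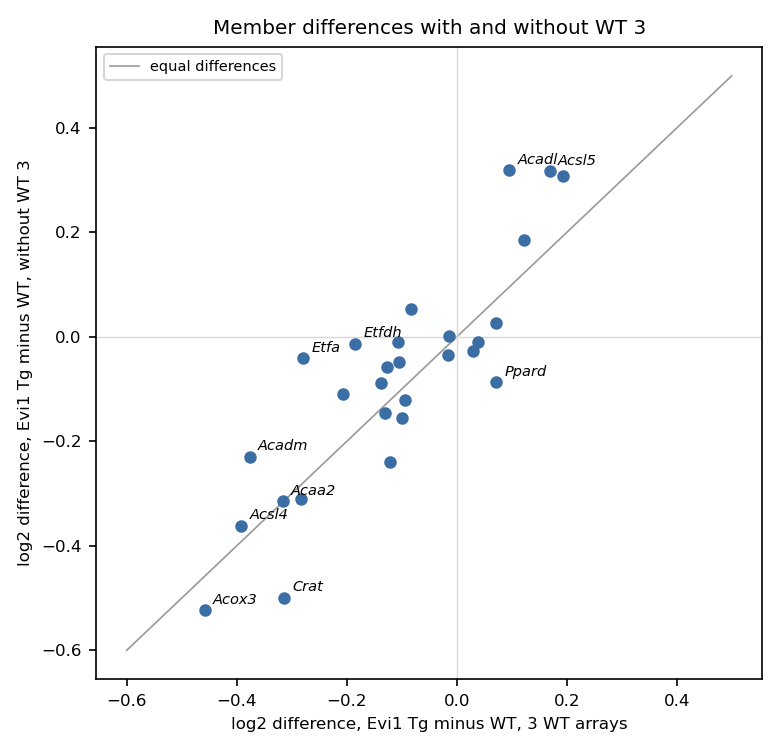
Log2 difference, Evi1 Tg minus WT, of each of the 28 members with all 6 arrays (horizontal axis) and without WT 3 (vertical axis), with a line where both are equal. Etfa and Etfdh move to near 0 and Acadl and Acsl5 to 0.32, while Acox3 and Acaa2 stay close to the line.

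Other lists also varied between the arrays. The 19 measured genes of G2 and mitosis had median deviations of -0.49 and -0.68 in WT 1 and WT 2, against 0.28 in WT 3 and 0.25, 0.27 and 0.43 in the Evi1 Tg arrays. The 5 macrophage markers had a median log2 difference of -0.035, with 3 of 5 below 0. Their summed intensity was 1718 to 2440 in the WT arrays and 719 to 1851 in the Evi1 Tg arrays, so the groups overlapped, with C1qa and C1qb not above background. Most of that sum came from Adgre1, at 1374, 1016 and 969 against 477, 411 and 659, and Vcam1, at 865, 1171 and 565 against 336, 110 and 1005, while Mertk had a difference of 0.053.

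All 5 markers of mast cells, basophils and eosinophils lay below 0, with a median of -0.33. Their summed intensity was 188, 917 and 507 in the WT arrays and 223, 219 and 198 in the Evi1 Tg arrays, so WT 2 and WT 3 stood apart and WT 1 did not. Fcer1a, Prg2 and Epx were not above background, and Cpa3, a mast cell protease, read 25.1, 621 and 239 against 26.3, 29.9 and 26.1. Among the megakaryocyte markers, Pf4 had -0.98 (SE 0.38), while the list's median was 0.078. The 5 mature neutrophil markers summed to 1466, 5185 and 997 in the WT arrays and 1440, 1221 and 2734 in the Evi1 Tg arrays. WT 2 stood apart there and the groups overlapped, with Ltf not above background. Mpo, a marker of immature granulocytic cells, read 92.7, 68.1 and 253 in the WT arrays and 1192, 863 and 525 in the Evi1 Tg arrays. The 8 myeloid markers, Mpo included, had a median log2 difference of -0.004, with 4 below 0 and 4 above. The part of cell division, of maturation state and of these other cell types in the members' values was not tested.

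Genes that feed or surround the pathway were read from 10 further lists. Of 103 genes listed 94 were measured, 55 of them lay below 0, and the median difference was -0.043. By limma adjusted p, 0 were lower and 0 higher. At an unadjusted p under 0.05, 12 were lower (12.8%) and 6 higher (6.38%), against the 5.8% and 4.5% of all genes given above. Among genes above background those shares were 8.17% and 5.6%, while some of the neighbours were not above background.

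For fatty acid uptake and binding, 2 of 12 genes were higher and 0 lower at an unadjusted p under 0.05. Fabp5, a cytosolic fatty acid binding protein, read 155, 167 and 151 in the WT arrays and 251, 223 and 204 in the Evi1 Tg arrays (difference 0.52, SE 0.10, limma adjusted p = 0.163). The transporter Slc27a1 read 119, 137 and 108 against 171, 168 and 152 (difference 0.44, SE 0.11). Neither overlapped between groups.

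Of 9 genes of lipolysis and lipid droplets, 3 were lower by the same rule and 0 higher. Plin2, which coats lipid droplets, read 3444, 2970 and 2702 in the WT arrays and 2564, 2039 and 2269 in the Evi1 Tg arrays (difference -0.41, SE 0.13). The lysosomal lipase Lipa had -0.29 (SE 0.089), and G0s2, an inhibitor of adipose triglyceride lipase, -0.55 (SE 0.18). The list's median was -0.29, below that of the members.

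Of 6 genes listed under carnitine supply 1 was lower and 1 higher, and the list's median was -0.053. The lower one, Crot, transfers acyl groups to carnitine and does not itself supply carnitine. Crot, the peroxisomal carnitine octanoyltransferase, read 532, 610 and 542 in the WT arrays and 314, 321 and 393 in the Evi1 Tg arrays. Its difference of -0.72 (SE 0.11, limma adjusted p = 0.105) had the lowest p of all 94 neighbours. Aldh9a1, an aldehyde dehydrogenase of carnitine synthesis, had 0.36 (SE 0.13).

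Among 12 further peroxisomal genes, 2 were lower and 1 higher. Scp2, a sterol carrier protein with a thiolase form for branched chains, read 726, 602 and 905 in the WT arrays and 431, 458 and 512 in the Evi1 Tg arrays (difference -0.66, SE 0.16, limma adjusted p = 0.222). The transporter Abcd3, which imports branched-chain and dicarboxylic acyl-CoA, had -0.39 (SE 0.15), and Abcd2, a transporter of very long-chain acyl-CoA, 0.28 (SE 0.11). The other listed genes included Phyh, which starts alpha-oxidation (-0.39, SE 0.23), and the racemase Amacr (0.11, SE 0.13).

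Of the other 8 acyl-CoA dehydrogenases, 1 was lower, Acadsb of isoleucine breakdown (-0.45, SE 0.098, limma adjusted p = 0.195). Of 5 genes of ketone body and acetyl-CoA metabolism, the cytosolic acetyl-CoA synthetase Acss2 (-0.55, SE 0.14) and the mitochondrial thiolase Acat1 (-0.33, SE 0.14) were lower, and 0 were higher. Among 6 thioesterases, Acot7 had 0.25 and Them4 -0.30, with Them4 not above background (2 of 6 arrays above it). The 10 genes of malonyl-CoA control had a median of -0.056, and 0 were lower or higher by the rule. Acaca, the cytosolic acetyl-CoA carboxylase, read 361, 328 and 407 against 380, 438 and 389, and Acacb, the mitochondrial form, lay below background in all 6 arrays.

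Of 15 measured genes of transcriptional control 1 was higher and 0 lower. This was Pprc1, a coactivator of the PGC-1 family, at 273, 304 and 326 in the WT arrays and 402, 407 and 389 in the Evi1 Tg arrays (difference 0.41, SE 0.092, limma adjusted p = 0.198). Ppargc1a, the best known member of that family, lay below background in all 6 arrays. The nuclear receptor Esrra had -0.17. Of 12 measured PPAR target genes outside the members, Plin2, Txnip (-0.34) and Vnn1 (-0.20) were lower, 0 were higher, and the median was 0.013. Vnn1 lay below background in each array. Only 5 of the 12 were above background, so the median rests largely on dim genes. These 5 were Plin2 (-0.41), Txnip (-0.34), Slc25a42 (-0.041), Creb3l3 (0.030) and Angptl4 (0.19).

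**Figure D5:**
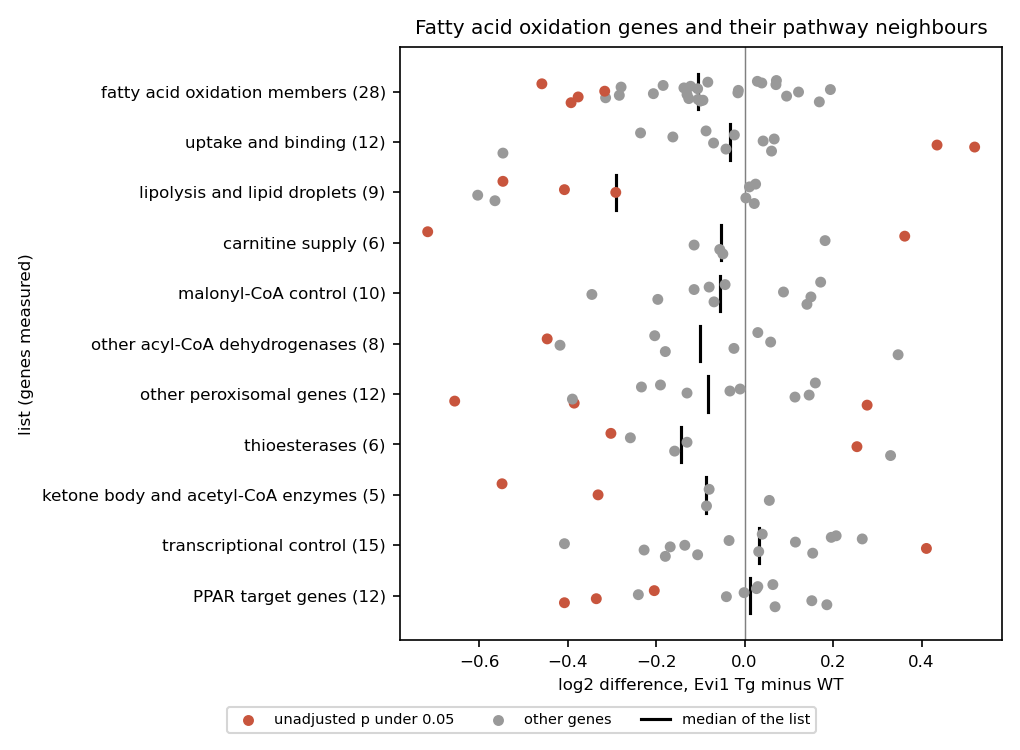
Log2 difference, Evi1 Tg minus WT (horizontal axis), of each measured gene of the fatty acid oxidation list and of 10 neighbouring lists (vertical axis, number of genes in brackets), with the list's median as a bar and genes with an unadjusted limma p under 0.05 in red. The median is -0.11 for the members, -0.29 for lipolysis and lipid droplets and 0.013 for PPAR target genes. Of the 12 PPAR target genes only 5 were above background.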

How the data were processed

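The deposited file holds the authors' probe set intensity for 6 arrays, linear by its range, from biotinylated cDNA made with a GeneChip WT PLUS kit according to the labels. How the authors corrected background, normalized and summarised is unknown, since the sources used here do not say. Normalization between arrays can hide a shift shared by most genes, and signal near background compresses differences.

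Values were log2 transformed without a pseudocount. Probe sets were named through the platform annotation (34351 probe sets, 23521 with 1 symbol, 1814 with several, 9016 with none). The brightest probe set with 1 symbol stood for a gene. Evi1 Tg and WT (n = 3 each) were compared with lmFit and eBayes of limma 3.58.1 (R 4.3.3) over 22180 genes with Benjamini-Hochberg adjustment, a threshold of 0.05 and no filter. The procedure was tested on simulated data. Figures used matplotlib 3.10.9.

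The members, lists, tests and alternatives were chosen with earlier results of these data known. All members are named, and of each neighbouring list up to 4 genes with an unadjusted p under 0.05. Esrra, Ppargc1a, Acaca, Acacb, Phyh, Amacr and the markers were named for their role, with their values seen. Angptl4, Slc25a42 and Creb3l3 were named as the other PPAR target genes above background. Alternatives covered scaling, dim genes, moderation, array weights, a replicate block, probe set choice, a pseudocount of 16, averaging of Evi1 Tg 1 and 2, and leaving out each array. Promoter windows came from RefSeq (GRCm38.p6).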

Additional observations from a re-analysis of the deposited data

How the results depend on the processing

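No member passed the adjusted threshold in any of the 16 alternatives (smallest limma adjusted p = 0.0635, for Acox3 without WT 3). Over all 22180 genes, 173 were called lower and 383 higher without WT 3, against 23 and 2 in the main fit. With array weights these counts were 82 and 32, and without moderation 0 and 0. The sign of the difference was kept throughout by 20 of 28 members. The 8 with a sign change were Acadl, Hadhb, Echs1, Acaa1a, Ehhadh, Hsd17b4, Ppara and Ppard. Acox3 and Acaa2 had an unadjusted p under 0.05 in all 16, Acsl4 in 10 and Acadm in 9. Putting the unadjusted p in place of the adjusted one gave 4 lower members. The number lower at an unadjusted p under 0.05 was 2 without moderation, where the spread of 1 gene alone sets its p, 2 with Evi1 Tg 1 and 2 averaged, and 2 to 5 when leaving out 1 array, where 4.26%, 4.12% and 3.90% to 7.05% of all genes were lower. The number higher was 1 (Eci1) with array weights, and 0 to 3 when leaving out 1 array, where 7.77% and 2.64% to 9.42% of all genes were higher. For groups that do not overlap, leaving out 1 array gave 6 to 9 lower and 0 to 4 higher members. The shares of all genes were 11% to 14.7% lower and 10.1% to 17.7% higher, as fewer arrays separate more easily by construction. Median centring gave 4 lower members, without Acsl4, and 0 higher, against 8.3% and 5.68% of all genes. The median of the members ranged from -0.11 to -0.053 when leaving out 1 array. The cause of these changes was not tested otherwise.

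Same-numbered arrays correlated in their deviations from the group means at 0.189, -0.185 and 0.061. WT 1 correlated best with its own number, and WT 2 and WT 3 did not. Deviations cancel within each group of 3 arrays, so these values cannot decide whether same-numbered samples were paired. By adjusted p, a replicate block gave 0 called members, and 9 lower and 0 higher genes over the whole table, against 23 and 2. At an unadjusted limma p under 0.05 it gave 4 lower and 0 higher members, where 6.0% of all genes were lower and 5.09% higher. Signal over background limits what can be read for Hadhb, Cpt1c, Ehhadh and Ppara.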

Other observations

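The citric acid cycle, which takes up the acetyl-CoA that beta-oxidation releases, was measured by 16 of 17 listed genes. Of these 5 lay below 0, with a median log2 difference of 0.056, against -0.11 for the fatty acid oxidation genes, and the difference between the lists was not tested. Median deviations were -0.18, -0.094 and 0.23 in WT 1, 2 and 3 and -0.016, 0.029 and 0.064 in Evi1 Tg 1, 2 and 3. WT 3 was thus the highest array for this list as well as for the members, while WT 1 and WT 2 were the lowest for the citric acid cycle and not for the members. By limma adjusted p, 0 of the 16 were called, and 1 was higher at an unadjusted p under 0.05.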
